A study of Homo sapiens with 15 samples.

Results

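A set of 9 genes that hold back the RAS-ERK pathway was followed across the libraries: the phosphatases DUSP1, DUSP4, DUSP5 and DUSP6, the Sprouty genes SPRY1, SPRY2 and SPRY4, and the Sprouty-related genes SPRED1 and SPRED2. They were taken by gene symbol from the deposited count table, where all 9 of the 9 symbols were found among 60675 genes. The cells were HT1080, an established human fibrosarcoma line that carries an activating NRAS mutation. The groups were untreated cells whose endogenous KDAC4 (gene HDAC4) carried H803A, untreated cells whose endogenous KDAC4 carried H976Y, untreated cells whose endogenous KDAC7 (gene HDAC7) carried H709A, and wild-type cells kept for 2 days in 1 µM TMP195. Both enzymes belong to the class IIa lysine deacetylases, a class that TMP195 inhibits. The title of the series speaks of inactive enzymes, read here as H803A and H709A. Its design text also speaks of enhanced ones, read here as H976Y, since putting tyrosine at that place is known to raise the activity of class IIa enzymes. Counts were at hand for 3 libraries of KDAC4 H803A, 4 of KDAC4 H976Y, 4 of KDAC7 H709A and 3 of TMP195. Untreated wild-type cells were not analysed here, so every difference below is between these groups and none is against unchanged cells. Whether replicates were separate cultures or clones is not stated in the labels, and p-values therefore reflect the spread of these samples alone, which may be technical.

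Growth factor receptors and RAS switch on the kinases RAF, MEK and ERK in turn, and ERK then induces genes whose products turn the pathway down. Dual-specificity phosphatases remove the activating phosphates from MAP kinases: DUSP5 is nuclear and acts on ERK, DUSP6 is cytoplasmic and acts on ERK, and DUSP1 and DUSP4 are nuclear and also act on the stress kinases JNK and p38. Sprouty proteins block signalling between receptors and RAF, and SPRED1 and SPRED2 bring the RAS inhibitor neurofibromin to the membrane. Messenger RNA of several of these genes is widely read as a gauge of ERK output, also in lines with mutant RAS. ERK activity itself was not measured.

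The first sequences shown are the promoters of SPRY2 and SPRY4, which were both low in KDAC4 H976Y, and that of DUSP1, a classic immediate early gene that was not called in any comparison of all libraries. Each is the 250 bases before a RefSeq start site (GRCh38.p14), given 5′ to 3′ on the gene's strand, and such windows were at hand for 7 of the 9 genes. Capitals mark matches, on either strand, to the 7 motifs searched. The letters of 5 motifs stand after the sequences, and the SRF CArG box and the MEF2 site are given by name. The windows lie on the minus strand at chr13:80341127-80341376 for SPRY2, chr5:142324248-142324497 for SPRY4 and chr5:172771196-172771445 for DUSP1. In GENCODE v29, the SPRY2 window is outside any gene, the SPRY4 window is intronic to longer SPRY4 transcripts, and the DUSP1 window adjoins the DUSP1 start within an intron of the antisense gene AC022217.3.
SPRY2: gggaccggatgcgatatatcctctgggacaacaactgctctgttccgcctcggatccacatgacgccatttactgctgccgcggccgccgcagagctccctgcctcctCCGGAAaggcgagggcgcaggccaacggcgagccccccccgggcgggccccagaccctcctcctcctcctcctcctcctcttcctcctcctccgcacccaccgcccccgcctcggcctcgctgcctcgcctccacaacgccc
SPRY4: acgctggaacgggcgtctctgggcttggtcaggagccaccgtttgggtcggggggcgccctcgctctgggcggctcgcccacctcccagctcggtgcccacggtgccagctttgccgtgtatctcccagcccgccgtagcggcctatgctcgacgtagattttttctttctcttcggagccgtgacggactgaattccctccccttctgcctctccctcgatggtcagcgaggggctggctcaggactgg
DUSP1: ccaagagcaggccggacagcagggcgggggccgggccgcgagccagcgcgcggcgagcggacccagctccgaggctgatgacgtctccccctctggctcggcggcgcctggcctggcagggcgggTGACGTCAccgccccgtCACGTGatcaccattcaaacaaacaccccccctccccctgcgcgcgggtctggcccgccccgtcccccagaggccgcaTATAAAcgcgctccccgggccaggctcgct
DUSP1 held at -125, counted back from the start site, the cAMP response element or CRE (TGACGTCA). At -108 DUSP1 held an E-box, the core that MYC and related factors recognise (CACGTG). The TATA box, which places the start of transcription, was found in DUSP1 at -30 (TATAAA). SPRY2 held at -142 the core recognised by ETS factors, many of which ERK controls (CCGGAA). The other SPRY2 windows, at chr13:80340109-80340358 and chr13:80339660-80339909, held no match to any of the 7 motifs. AP-1 sites, bound by FOS and JUN, were in 6.57% of all windows but in none of the members' windows (TGANTCA). SPRY4 held no match to any of the 7 motifs, and the motifs searched did not overlap one another in these windows. Over all 35116 windows of this length, 1.65% held a CRE, 14.5% an ETS core, 6.34% an E-box and 10.7% a TATA box. SRF CArG boxes and MEF2 sites, in 1.16% and 2.8% of all windows, were found in none of the 11 windows of the 7 genes. A match describes the letters of the window and not the binding of a factor.

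Library totals ran from 6151417 to 24297525 counts, and levels are given as CPM, the usual rate of counts relative to the size of the scaled library, where 1 CPM stood for 4.86 to 23.9 counts. The KDAC4 H976Y libraries stood apart in composition: mitochondrial ribosomal RNA took 16.1% to 31.5% of their counts against at most 0.345% elsewhere, and small nucleolar RNA 0.722% to 0.913% against at most 0.101%. The difference between GC-rich and GC-poor genes (log2) was 1.48 and 1.41 in KDAC4 H803A libraries 2 and 3 but -1.17 in the library labelled KDAC4 H803A 1. It was 1.27 in the library labelled KDAC7 H709A 1 but -0.51 to -1.20 in the other 3 of that group. The closest of all pairs of libraries carried different labels: KDAC4 H803A 1 and KDAC7 H709A 4 had a chi-square per degree of freedom of 2.14 over genes, where 1 is counting noise, while KDAC4 H803A 1 had 213 with library 2 of its own group. KDAC7 H709A 1 was closest to KDAC4 H803A 3 (33.1) and had 155 to 287 with its own group. Gene counts do not show the changed amino acid itself, so they could not tell which labels were right. Results are given with and without these 3 libraries. The 3 were picked for standing apart in these same counts. Without them only libraries 2 and 3 of KDAC4 H803A and of KDAC7 H709A remain. Spread within groups is then smaller by that choice and more genes are called. All p-values without the 3 libraries are therefore descriptive. Of 8 mesenchymal markers, 5 to 7 had group means over 1 CPM (VIM 3581 to 4981 CPM), while S100A4, THY1 and NT5E were at most 1.78 CPM. Among epithelial markers EPCAM and CDH1 were at most 0.0704 CPM, but KRT8 and KRT18 had 114 to 212 CPM. PTPRC and HBB, of blood cells, were at 0 in every library, but LCP1 of the same list had group means of 48.6 to 174 CPM. In KDAC4 H976Y the mean of FN1 was 2188 CPM against 482 to 1003 elsewhere, and CD44 (1244) and SPARC (587) were also highest there. Against this, VIM was lowest there, and LGALS1 (646) lay below TMP195 (725). The neural marker TUBB3 had 172 CPM in KDAC4 H976Y against 65.7 to 99.8, while MAP2 (1.74) and RBFOX3 (0.273) were lowest there. The part of these markers in the results was not tested.

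The clearest pattern was a low level of DUSP5, SPRY2 and SPRY4 in KDAC4 H976Y cells. The other groups exceeded it by 1.19 to 2.32 on the log2 scale. DUSP5 was highest in KDAC7 H709A and KDAC4 H803A cells, and SPRY4 was highest in TMP195-treated cells. In bulk RNA, fewer cells with a message and less message per cell cannot be told apart. DUSP1, SPRED1, SPRED2 and SPRY1 were not called in any comparison of all 14 libraries, and DUSP6 was too low to test. Calls are those of edgeR's quasi-likelihood F test at a Benjamini-Hochberg adjusted p under 0.05 over 17780 genes; 8 of the 9 members passed the filter on low counts. In the test for any difference among the 4 groups, DUSP5 (adjusted p = 3.45e-05), SPRY4 (0.000473), SPRY2 (0.00251) and DUSP4 (0.0455) passed, 4 of the 8 members tested, where 19.6% of all genes did. The count was 3 without any 1 library of KDAC4 H976Y or TMP195, without KDAC4 H803A 2 and without KDAC7 H709A 4, where 11.5% to 18.4% of all genes passed.

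**Figure D1:**
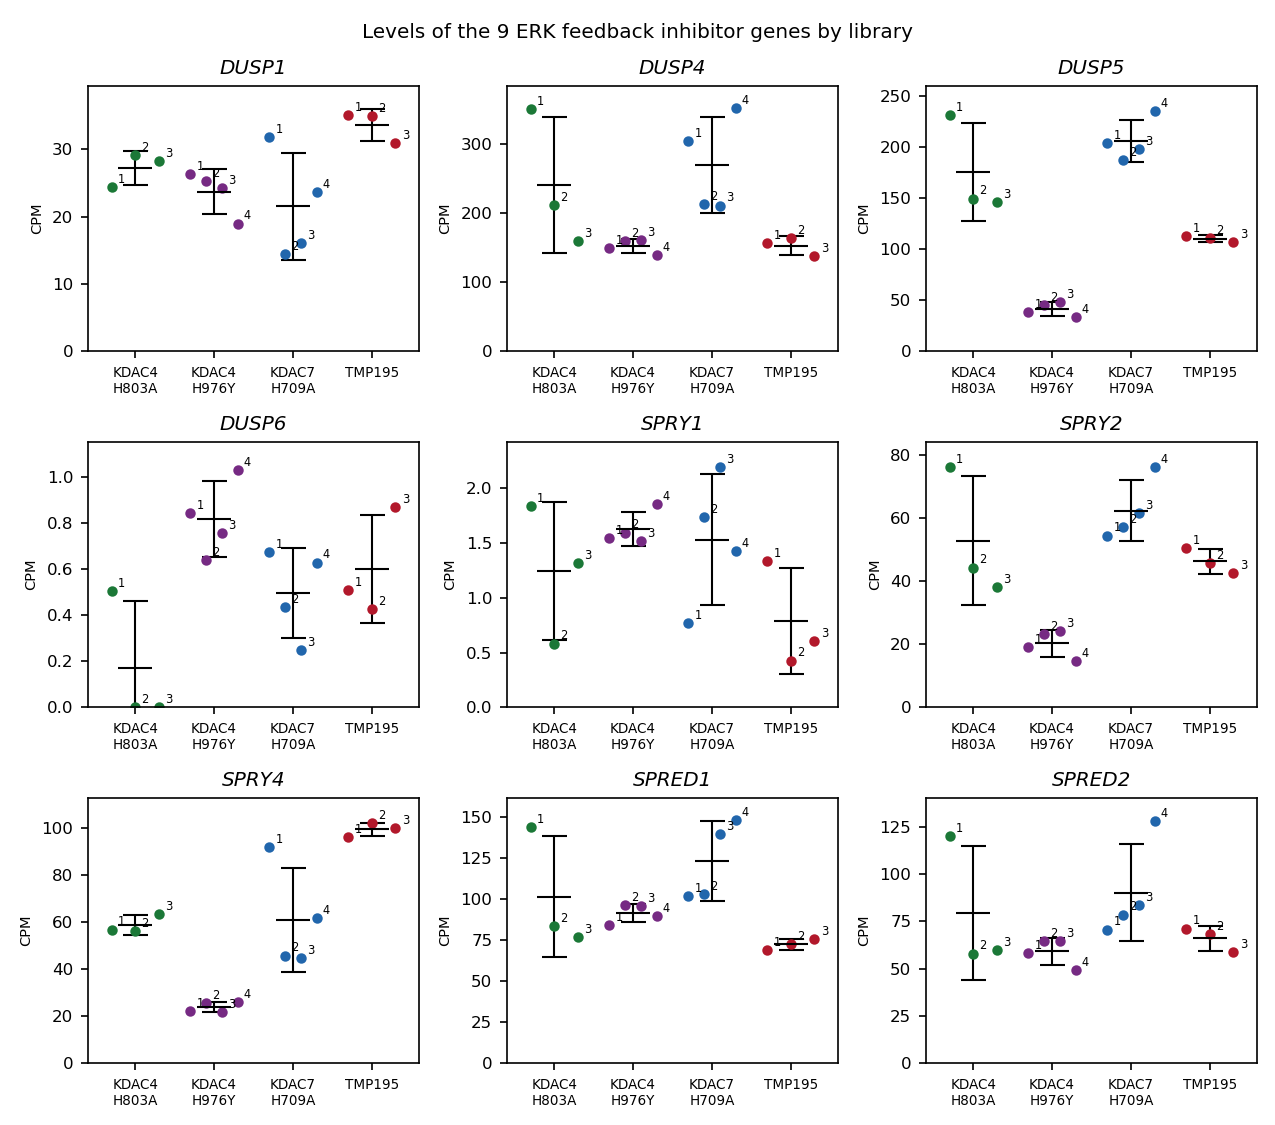
Level of each of the 9 genes in CPM (vertical axis, from 0, on its own scale) in every library, numbered by replicate; the horizontal bars are the group mean and the error bars 1 SD. DUSP5, SPRY2 and SPRY4 lie lower in all 4 KDAC4 H976Y libraries than in any other library.

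Compared per kilobase of exon, DUSP5 was the most abundant of the 9 messages in 3 groups, at 78.9 ± 7.79 CPM per kb in KDAC7 H709A (SD, n = 4), 67.2 ± 18.4 in KDAC4 H803A (n = 3) and 42.2 ± 1.24 in TMP195 (n = 3). In KDAC4 H976Y it took the second place, with 15.8 ± 2.62 CPM per kb (n = 4), below DUSP4 at 21.0 ± 1.42. On this scale DUSP5 and DUSP4 did not overlap in any group. Per kilobase of the effective length deposited for 1 library they overlapped in KDAC4 H803A, where DUSP5 had at least 64.1 and DUSP4 at most 74.1 CPM per kb, and in KDAC4 H976Y the mean of DUSP5 (18.1) also lay below those of SPRED1 (25.0) and SPRED2 (19.0). Per kilobase of exon, the order of SPRY2, SPRED2, SPRED1 and DUSP1 differed between groups. In KDAC4 H803A neighbours overlapped, and in KDAC4 H976Y SPRED1 (at least 10.2) lay above SPRY2 (at most 7.95). In TMP195 DUSP1 (at least 15.3) lay above SPRED2 (11.4 to 13.8), and SPRED2 above SPRED1 (at most 9.19). Per kilobase of effective length the TMP195 order did not hold. There DUSP1 (17.5 to 19.8) had the lowest mean and overlapped SPRED2 (18.9 to 22.9) and SPRED1 (18.9 to 20.7). In KDAC4 H803A, DUSP1 (at most 16.4) then lay below SPRED2 (at least 18.7), while SPRED1 stayed above SPRY2 in KDAC4 H976Y. SPRY1 and DUSP6 were the lowest in every group by either length, at most 0.411 and 0.177 CPM per kb of exon as group means, although DUSP6 reached 2.43 per kb of its short effective length.

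DUSP5 (ENSG00000138166, chromosome 10, 110497838 to 110511544, plus strand, GRCh38) encodes the nuclear phosphatase that is specific for ERK. In KDAC4 H803A its 3 libraries held 231, 149.6 and 146 CPM, with 38.4, 45.5, 48.3 and 33.2 in the 4 KDAC4 H976Y libraries, 204, 188, 198 and 235 in the 4 KDAC7 H709A libraries, and 113, 111 and 107 in the 3 TMP195 libraries. KDAC4 H976Y was low in every library and TMP195 lay between it and both inactive variants, without overlap; KDAC4 H803A and KDAC7 H709A overlapped. Against KDAC4 H976Y, DUSP5 rose by 2.08 ± 0.20 (log2, SE) in KDAC4 H803A (edgeR adjusted p = 4.87e-05), by 2.32 ± 0.19 in KDAC7 H709A (1.47e-05) and by 1.41 ± 0.20 in TMP195 (0.000476). Without the 3 doubted libraries these were 1.81, 2.21 and 1.40, and all 3 stayed called.

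DUSP5 was the 1 member called between TMP195 and an inactive variant. It was lower in TMP195 than in KDAC7 H709A by -0.90 ± 0.20 (log2, SE; edgeR adjusted p = 0.0173), and by -0.81 with adjusted p = 0.000556 without the 3 libraries. The call did not hold without TMP195 library 1, 2 or 3 (adjusted p = 0.0897, 0.0937 and 0.0982). Against KDAC4 H803A the value was -0.67 ± 0.21 (adjusted p = 0.0871), not called; it was -0.41 with adjusted p = 0.0298 without the 3 libraries.

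DUSP4 (ENSG00000120875, chromosome 8, 29333064 to 29350668, minus strand) encodes a nuclear phosphatase of ERK, JNK and p38. It stood at 351, 212 and 159.9 CPM in KDAC4 H803A, at 150.2, 159.7, 162 and 139 in KDAC4 H976Y, at 304, 213, 211 and 352 in KDAC7 H709A, and at 157, 164 and 139 in TMP195. All KDAC7 H709A libraries were above all of KDAC4 H976Y and TMP195, and KDAC4 H803A overlapped both. DUSP4 rose by 0.82 ± 0.24 (log2, SE) in KDAC7 H709A against KDAC4 H976Y (edgeR adjusted p = 0.0384). This call rested on most libraries: it was lost without any 1 library of KDAC4 H976Y or TMP195, and without KDAC7 H709A 1 or 4, with adjusted p of 0.0596 to 0.109, and was made under 13 of 26 alternative settings. Without the 3 doubted libraries the value was 0.48 with adjusted p = 0.0163. The libraries labelled KDAC4 H803A 1 and KDAC7 H709A 4 held near-equal and the highest DUSP4 levels. In KDAC4 H803A against KDAC4 H976Y the value was 0.66 ± 0.25 (adjusted p = 0.0942), and 0.27 (0.101) without the 3 libraries. TMP195 and KDAC4 H976Y differed by 0.01 ± 0.26, with a 95% interval of -0.55 to 0.56.

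DUSP1 (ENSG00000120129, chromosome 5, 172768090 to 172771195, minus strand) encodes an immediate early phosphatase that acts most on p38 and JNK. Its level was 24.4, 29.1 and 28.3 CPM in KDAC4 H803A, 26.3, 25.3, 24.3 and 18.9 in KDAC4 H976Y, 31.9, 14.4, 16.1 and 23.6 in KDAC7 H709A, and 35.1, 34.9 and 30.9 in TMP195. The TMP195 libraries were above those of both KDAC4 variants, while KDAC7 H709A spread over more than the range of KDAC4 H976Y. No comparison called DUSP1: TMP195 exceeded KDAC4 H976Y by 0.50 ± 0.25 (log2, SE; edgeR adjusted p = 0.173) and KDAC7 H709A by 0.65 ± 0.25 (0.14). The library labelled KDAC7 H709A 1 held 2.09 times the mean of libraries 2 and 3. Without the 3 doubted libraries the first value was 0.49 (adjusted p = 0.00512) and the second 1.13 (8.78e-05). DUSP1 was then also lower in KDAC7 H709A than in KDAC4 H803A, by -0.89 (0.00048). In these comparisons without the 3 libraries, 53.9%, 45.7% and 60.2% of all genes were called.

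DUSP6 (ENSG00000139318, chromosome 12, 89347232 to 89353271, minus strand), the cytoplasmic ERK phosphatase and a common readout of ERK output, was near the limit of detection. Its level was 0.507, 0 and 0 CPM in KDAC4 H803A, 0.845, 0.638, 0.758 and 1.03 in KDAC4 H976Y, 0.676, 0.434, 0.25 and 0.629 in KDAC7 H709A, and 0.508, 0.427 and 0.869 in TMP195. Over the 14 libraries this came to 91 counts, with at most 14.6 expected counts in a library, and the 2 libraries at 0 allow up to 0.291 and 0.329 CPM (3 counts, counting error only). DUSP6 failed the filter; fitted without it, no comparison passed (edgeR adjusted p = 0.233 to 0.952). The deposited effective length of DUSP6 was 336.94 bases, while its longest GENCODE transcript has 4400 bases, and AC024909.2 overlaps it on the other strand at up to 0.548 CPM. The part of read assignment in this low level was not tested.

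SPRY2 (ENSG00000136158, chromosome 13, 80335976 to 80340951, minus strand) encodes a Sprouty protein that restrains growth factor receptor signalling and is itself induced by it. It stood at 76.4, 44.4 and 38.05 CPM in KDAC4 H803A, at 19.1, 23.3, 24.1 and 14.6 in KDAC4 H976Y, at 54.5, 57.4, 61.8 and 76.2 in KDAC7 H709A, and at 50.5, 45.7 and 42.7 in TMP195. The 4 KDAC4 H976Y libraries were below every other library, and the other groups overlapped, apart from KDAC7 H709A lying above TMP195. Against KDAC4 H976Y, SPRY2 rose by 1.379 ± 0.25 (log2, SE) in KDAC4 H803A (edgeR adjusted p = 0.00362), by 1.62 ± 0.24 in KDAC7 H709A (0.000961) and by 1.19 ± 0.25 in TMP195 (0.00676). With these libraries left out the values were 0.99, 1.53 and 1.16, all called. The other genes of chromosome 13 moved the same way: the median of its 330 tested genes was 0.72, 1.00 and 0.69 in these comparisons. SPRY2 thus exceeded the median of its chromosome by 0.66, 0.62 and 0.49, and the part of the chromosome in the calls was not tested further.

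SPRY4 (ENSG00000187678, chromosome 5, 142310427 to 142326455, minus strand) encodes the Sprouty protein that binds RAF and holds back its activation. Its level was 56.8, 56.0 and 63.4 CPM in KDAC4 H803A, 22.2, 25.5, 21.7 and 26.0 in KDAC4 H976Y, 91.7, 45.7, 44.6 and 61.8 in KDAC7 H709A, and 96.1, 101.9 and 99.9 in TMP195. The order differed from that of DUSP5 and SPRY2: TMP195 was above every other library, KDAC4 H976Y below every other, and the inactive variants overlapped between them. Against KDAC4 H976Y, SPRY4 rose by 2.06 ± 0.23 (log2, SE) in TMP195 (edgeR adjusted p = 9.13e-05), by 1.3 ± 0.23 in KDAC4 H803A (0.003) and by 1.35 ± 0.22 in KDAC7 H709A (0.00149). Left out, the 3 libraries changed these to 2.06, 1.31 and 0.93, all called. TMP195 exceeded KDAC4 H803A by 0.76 ± 0.24 (adjusted p = 0.0967) and KDAC7 H709A by 0.71 ± 0.22 (0.0816), neither called with all libraries. Their values without the 3 libraries were 0.74 (adjusted p = 0.000332) and 1.13 (1.65e-05), both called. Leaving out the library labelled KDAC7 H709A 1 alone, which held 2.03 times the mean of libraries 2 and 3, also gave both calls. The median of the tested genes of chromosome 5 was -0.24 in TMP195 against KDAC4 H976Y.

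SPRY1 (ENSG00000164056, chromosome 4, 123396795 to 123403760, plus strand), the third Sprouty gene, was low: 1.84, 0.581 and 1.32 CPM in KDAC4 H803A, 1.55, 1.60, 1.52 and 1.85 in KDAC4 H976Y, 0.772, 1.74, 2.19 and 1.43 in KDAC7 H709A, and 1.33, 0.427 and 0.602 in TMP195. These rest on 230 counts in all and 6 to 35 in a library. TMP195 lay below KDAC4 H976Y in every library, by -1.03 ± 0.53 (log2, SE), which was not called (edgeR adjusted p = 0.186, and 0.0627 without the 3 libraries). Against KDAC7 H709A, SPRY1 was lower in TMP195 by -1.32 (adjusted p = 0.0369) without the 3 libraries, and not called with all. The 95% interval of the difference from KDAC4 H976Y was wide at this depth, from -2.17 to 0.10.

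SPRED1 (ENSG00000166068, chromosome 15, 38252326 to 38357249, plus strand), whose product carries neurofibromin to RAS, stood at 144, 83.8 and 77.1 CPM in KDAC4 H803A, 84.5, 96.4, 96.1 and 90.0 in KDAC4 H976Y, 102, 103, 139.9 and 148 in KDAC7 H709A, and 69.1, 72.8 and 75.9 in TMP195. TMP195 was the lowest group without overlap with any other. SPRED2 (ENSG00000198369, chromosome 2, 65310851 to 65432637, minus strand), its close relative, stood at 120.1, 58.0 and 59.9 CPM, then 58.4, 64.7, 64.4 and 49.4, then 70.7, 78.6, 83.6 and 128, and 71.2, 68.4 and 58.6, in the same order of groups. For both genes the libraries labelled KDAC4 H803A 1 and KDAC7 H709A 4 were the highest of their groups and nearly alike. No comparison called either gene: the smallest edgeR adjusted p was 0.0622, for SPRED1 in TMP195 against KDAC7 H709A (-0.76 ± 0.23, log2, SE). With offsets for GC content and length it was -0.27 (adjusted p = 0.341). Without the 3 libraries the value was -0.75 (adjusted p = 0.000704), and SPRED1 (0.41, 0.0281) and SPRED2 (0.45, 0.0183) were then called in KDAC7 H709A against KDAC4 H976Y, as higher. SPRED2 in KDAC4 H803A against KDAC4 H976Y was 0.42 ± 0.27 (adjusted p = 0.28) with all libraries and -0.03 without the library labelled KDAC4 H803A 1.

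**Figure D2:**
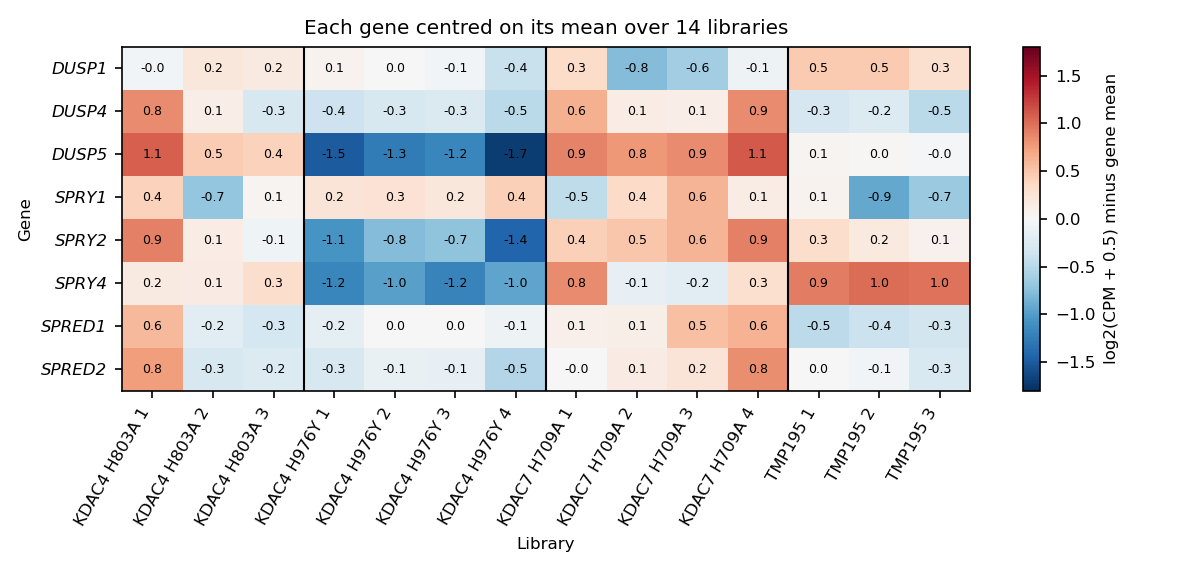
Each tested gene (rows) in each library (columns) as log2(CPM + 0.5) minus the gene's mean over the 14 libraries; vertical lines part the groups. DUSP5, SPRY2 and SPRY4 are negative in all KDAC4 H976Y columns, and the columns of KDAC4 H803A 1 and KDAC7 H709A 4 look alike in most rows.

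KDAC4 H803A was compared with KDAC4 H976Y as the inactive against the enhanced form of 1 enzyme. DUSP5, SPRY4 and SPRY2 rose by 4.24-fold, 2.46-fold and 2.60-fold, and the other 5 tested members were not called. That is 3 of 8 members, where 15.1% of all 17780 genes were called in either direction and 9.21% as higher. The libraries of the groups did not overlap for 3 of 8 members and for 23.1% of all genes. The same 3 genes were called, and no other, without the 3 doubted libraries, where 64.5% of all genes were called.

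KDAC7 H709A against KDAC4 H976Y sets the inactive form of the sister enzyme against the same libraries, so the values of both comparisons share their reference. DUSP5 rose 4.98-fold, SPRY2 3.07-fold, SPRY4 2.56-fold and DUSP4 1.77-fold, 4 of 8 members, where 12.5% of all genes were called and 7.28% as higher. Groups did not overlap for 6 of 8 members and for 20.1% of all genes. Without the 3 libraries 7 members were called, DUSP1 lower and SPRED1, SPRED2, DUSP4, DUSP5, SPRY2 and SPRY4 higher, and 31.8% of all genes were.

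TMP195 against KDAC4 H976Y again shares those libraries and differs in both drug and genotype. SPRY4 rose 4.17-fold, DUSP5 2.67-fold and SPRY2 2.27-fold, 3 of 8 members, where 16.5% of all genes were called and 7.96% as higher. Groups did not overlap for 6 of 8 members, 4 higher and 2 lower, but also for 53.8% of all genes. Without the 3 libraries 5 members were called, with DUSP1 higher and SPRED1 lower (-0.34, edgeR adjusted p = 0.0242), and 53.9% of all genes were. In all 3 of these comparisons the reference libraries carried the high mitochondrial ribosomal and small nucleolar RNA. Fitted on nuclear protein-coding genes alone, DUSP5, SPRY2 and SPRY4 stayed called in each. That fit changes only the scaling and the genes tested. This RNA composition coincides with KDAC4 H976Y in every library, so the parts of composition and variant cannot be told apart.

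KDAC7 H709A and KDAC4 H803A, the 2 inactive forms, were not told apart by these genes. No member was called by edgeR, none had an unadjusted p under 0.05 and none was called by DESeq2, where 0% of all genes were called by edgeR, 1118 genes had an unadjusted p under 0.05 and DESeq2 called 79. All 8 members overlapped between these groups, which 2.01% of all genes did not. The members' values ran from -0.34 for DUSP1 to 0.29 for SPRY1 (log2); for DUSP5 the difference was 0.23 with a 95% interval of -0.19 to 0.65, and for SPRY2 0.24 with -0.30 to 0.78. This result turned on the doubted libraries. Without the library labelled KDAC4 H803A 1, 1 member was called, with 25.7% of all genes, and without all 3 libraries 6 were, with 60.2% of all genes: DUSP5 (0.40), SPRY2 (0.55), SPRED1 (0.61) and SPRED2 (0.48) higher in KDAC7 H709A, and DUSP1 (-0.89) and SPRY4 (-0.39) lower. The sign of SPRY4 thereby differed from the 0.05 of all libraries.

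TMP195 against KDAC4 H803A compared the inhibitor with the inactive KDAC4. No member was called by edgeR, where 5.34% of all genes were; 3 members had an unadjusted p under 0.05, as did 3298 of all 17780 genes, and DESeq2 called 1, with 10.9% of all genes. The libraries did not overlap for 4 of 8 members, 2 higher and 2 lower, and for 24.3% of all genes. When the 3 libraries were left out, DUSP5 was called lower and SPRY4 higher, 2 of 8, where 47.9% of all genes were called. In TMP195 against KDAC7 H709A, DUSP5 alone was called, and lower, 1 of 8, where 6.29% of all genes were called and 4.31% as lower. The groups did not overlap for 5 of 8 members, 1 higher and 4 lower, and for 24.3% of all genes. The number of members called was 0 without any 1 TMP195 library, where 2.27% to 2.44% of all genes were called. It was 4 without the library labelled KDAC4 H803A 1 or KDAC7 H709A 1, with 14.6% and 15.7% of all genes, and 6 without the 3 libraries, where 45.7% of all genes were called.

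**Figure D3:**
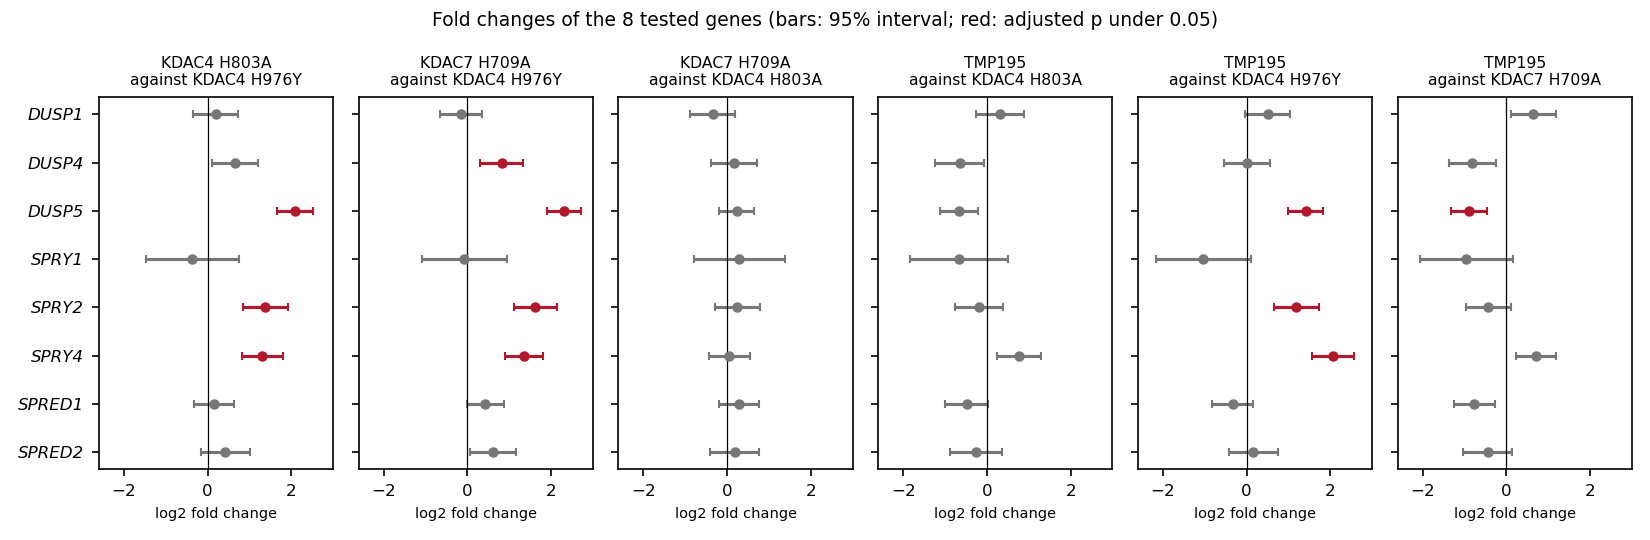
Log2 fold change of the 8 tested genes (rows) in the 6 comparisons (panels), with 95% intervals as bars; red points passed an adjusted p of 0.05. DUSP5, SPRY2 and SPRY4 lie to the right of 0 in the 3 comparisons against KDAC4 H976Y, between 1.19 and 2.32.

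With all libraries, most genes of the kinase cascade were not called, and neither were most of all genes tested. Of 24 genes from RAS and its adaptors to ERK and RSK, 1 rose in KDAC4 H803A and 1 in KDAC7 H709A against KDAC4 H976Y. In TMP195 against KDAC4 H976Y, 2 rose and 1 fell. Of all genes, 15.1%, 12.5% and 16.5% were called in these comparisons, and 9.21%, 7.28% and 7.96% as higher. The list medians were -0.16, 0.05 and -0.37 (log2) beside 0.09, 0.09 and 0.03 for all genes tested. GAB2, an adaptor that links receptors to RAS, rose in all 3, by 0.91 ± 0.22, 1.11 ± 0.21 and 1.04 ± 0.22 (log2, SE; edgeR adjusted p = 0.0159, 0.00369 and 0.00657). GRB2, the adaptor that recruits SOS, fell in TMP195 by -0.61 ± 0.19 (adjusted p = 0.0409) and had -0.45 ± 0.19 (0.108) and -0.52 ± 0.17 (0.0649) in the inactive variants. The receptor substrate FRS2 and the RAS exchange factor SOS2 were not called. Without the 3 doubted libraries the counts were 3 higher and 13 lower in KDAC4 H803A, 6 and 4 in KDAC7 H709A, and 3 and 12 in TMP195, where 64.5%, 31.8% and 53.9% of all genes were called in either direction.

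Of 9 tested other MAP kinase phosphatases, 4 rose in KDAC4 H803A, 2 in KDAC7 H709A and 1 in TMP195 against KDAC4 H976Y. None fell. For comparison, 15.1%, 12.5% and 16.5% of all genes were called, and 9.21%, 7.28% and 7.96% as higher. DUSP7, which like DUSP6 is a cytoplasmic ERK phosphatase, rose in all 3, by 1.13 ± 0.19, 1.09 ± 0.18 and 0.64 ± 0.19 (log2, SE; edgeR adjusted p = 0.00256, 0.00193 and 0.0366), from 23.3 ± 4.49 CPM (SD, n = 4) in KDAC4 H976Y. DUSP22, a JNK-pathway phosphatase, rose by 0.67 ± 0.19 (0.0359) and 0.88 ± 0.18 (0.00672) in the inactive variants and had 0.49 ± 0.19 (0.102) in TMP195. DUSP3 and the pseudophosphatase STYX were not called. The list medians, -0.02, 0.01 and -0.07, were near 0. Left without the 3 libraries, the list had 4 higher and 4 lower, 2 and 0, and 3 and 1, beside the same 64.5%, 31.8% and 53.9% of all genes.

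In TMP195 against KDAC4 H976Y, 1 of 18 tested other RAS-ERK inhibitors fell. In KDAC4 H803A, KDAC7 H709A and TMP195 against KDAC4 H976Y, 15.1%, 12.5% and 16.5% of all genes were called in either direction. In each of these comparisons 2 inhibitors rose, beside 9.21%, 7.28% and 7.96% of all genes. The 2 were RASA3, a RAS GTPase-activating protein (1.91 ± 0.37, 1.47 ± 0.34 and 1.52 ± 0.36, log2, SE; edgeR adjusted p = 0.00488, 0.0136 and 0.0136), and DAB2IP, another one (1.13 ± 0.27, 0.88 ± 0.25 and 0.92 ± 0.27; 0.0153, 0.0365 and 0.0333). RASA3 lies on chromosome 13, as does SPRY2. LRIG1, which promotes the breakdown of receptors, fell in TMP195 by -0.96 ± 0.19 against KDAC4 H976Y (adjusted p = 0.00461) and by -0.92 ± 0.20 against KDAC4 H803A (0.0147). RASA2 was not called. With the 3 libraries left out there were 6 higher and 7 lower, 9 and 2, and 4 and 3, again beside 64.5%, 31.8% and 53.9% of all genes.

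Of 24 tested genes that ERK is known to induce, 5 rose and 2 fell in KDAC4 H803A, 6 rose and 0 fell in KDAC7 H709A, and 7 rose and 1 fell in TMP195 against KDAC4 H976Y. Of all genes, 15.1%, 12.5% and 16.5% were called in these comparisons, and 9.21%, 7.28% and 7.96% as higher. The list medians were 0.45, 0.64 and 0.52 beside 0.09, 0.09 and 0.03 for all genes tested. EGR1, an immediate early transcription factor, was at 1.29 ± 0.33 CPM in KDAC4 H976Y (SD, n = 4). Its libraries were uneven in KDAC4 H803A (30.0 ± 22.6) and KDAC7 H709A (40.9 ± 52.7), with 16.1 ± 4.40 in TMP195. Against KDAC4 H976Y, EGR1 rose by 4.51 ± 0.88, 4.96 ± 0.87 and 3.62 ± 0.86 (log2, SE, edgeR adjusted p = 0.00531, 0.00259 and 0.0132). PHLDA2, a growth-restraining gene, rose by 1.17 ± 0.21, 1.34 ± 0.20 and 0.82 ± 0.21 (0.00332, 0.000952 and 0.0182). TRIB1, a pseudokinase gene, fell in TMP195 by -0.97 ± 0.22 (0.0118). Leaving the 3 libraries out gave 12 higher and 7 lower, 9 and 2, and 11 and 5, beside 64.5%, 31.8% and 53.9% of all genes. In KDAC7 H709A against KDAC4 H803A, 1 of the inhibitors and 4 of the ERK-induced genes had an unadjusted edgeR p under 0.05. So did 1118 of all 17780 genes. None of the genes in these 4 lists was called there by edgeR or DESeq2, which called 0% and 0.444% of all genes. That did not hold without the 3 libraries, where 60.2% of all genes were called: 13 genes of the cascade were higher and 4 lower in KDAC7 H709A, 4 and 2 of the other phosphatases, 9 and 7 of the inhibitors, and 7 and 9 of the ERK-induced genes.

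**Figure D4:**
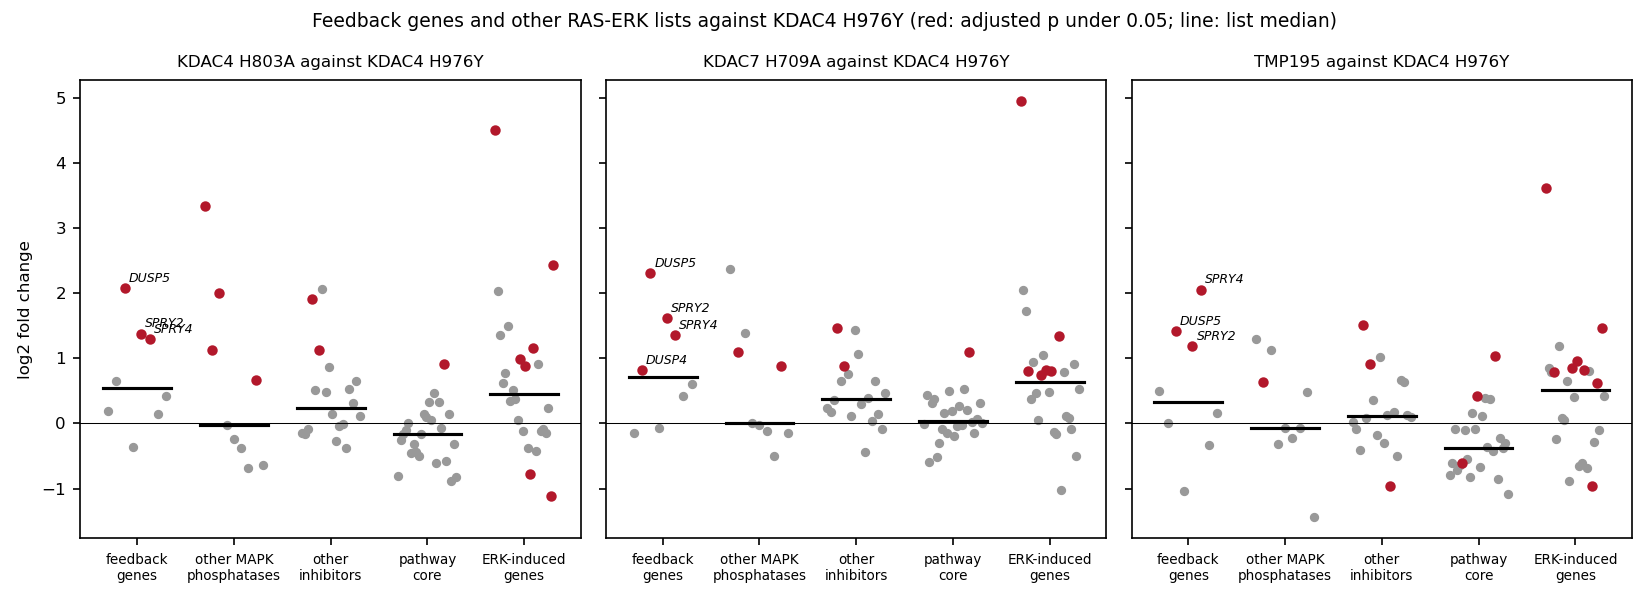
Log2 fold changes against KDAC4 H976Y (vertical axis) of the feedback genes and of the 4 other lists, 1 point per tested gene; red points passed an adjusted p of 0.05 and the line is the list's median. The feedback genes DUSP5, SPRY2 and SPRY4 are red in all 3 panels, and EGR1 is the highest point of the ERK-induced genes at 3.62 to 4.96.

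The members did not share 1 profile. The distance between 2 genes was taken as the root mean square difference of their centred log2 CPM over the 14 libraries. The closest members were SPRED1 and SPRED2 (0.24), DUSP4 and SPRED2 (0.25), DUSP4 and SPRED1 (0.28), and DUSP5 and SPRY2 (0.33). Over all genes tested, the genes nearest to DUSP5 were UBALD2 and FOXO1 (0.23 and 0.25), those nearest to SPRY2 were CCBE1 and COLGALT2 (0.20 and 0.22), and ST3GAL3 was among those nearest to SPRY4 (0.21). For comparison, the median distance of all genes was 1.15 from DUSP5, 0.94 from SPRY2 and 0.99 from SPRY4. DUSP4 was nearest to RASAL2 and NR3C2 (0.17 and 0.18), DUSP1 to HIST1H3B and ARHGEF2 (0.16 and 0.17), and SPRY1 to ZNF518A and ZNF107 (0.27 and 0.28). SPRED1 was nearest to AFF1 and KLHL42 (0.12 and 0.13) and SPRED2 to KCNMA1 and HERPUD2 (0.09 and 0.11). These libraries share depth and composition differences, which enter every such distance.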

How the data were processed

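Ribosomal-RNA-depleted total RNA of HT1080 cells was sequenced in paired ends, per the labels' protocols. Values are RSEM-type expected counts by gene, deposited by the authors as a single unscaled table. Trimmomatic 0.39, Bowtie2 2.4.5, RSEM 1.3.3, DESeq2 1.38.2 and GRCh38 are named, with no roles, per the submitters' processing notes. RSEM shares reads among the transcripts they match, so counts need not be whole. No strand setting or annotation release is given in the sources used here; antisense genes overlap DUSP1, DUSP6 and SPRY4, at up to 1.27 CPM.

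The column of KDAC4 H803A replicate 4 was left out: for 7367 of 7612 genes with a single transcript, or 96.8%, it equalled the transcript length minus 248.86 bases within 0.02, which fits effective lengths and not counts. 0 columns were left without a sample.

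Expected counts were rounded, filtered with filterByExpr (minimum count 10, minimum total 15), scaled by TMM and fitted in 1 model over the 4 groups with edgeR 4.0.16 (R 4.3.3, limma 3.58.1) by the quasi-likelihood F test; p-values were adjusted by Benjamini-Hochberg over 17780 genes. The SE is |log2 fold change| over the root of F, and 95% intervals use it with the quantile of t at the model's degrees of freedom. CPM are relative to the TMM-scaled library, and per-kilobase levels divide by GENCODE v29 exon length. The procedure was tested on simulated data of less spread than these counts, so that test does not measure error rates here. Alternatives covered DESeq2 1.42.0, other scalings and filters, GC and length offsets, the replicate block and left-out libraries.

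The members and lists were chosen with earlier results of these data known. Named from each list were the 2 genes with the smallest p over the 4 groups in each direction of KDAC4 H803A against KDAC4 H976Y, and for each member the 2 nearest genes; some genes these rules name are not reported here. Blood-cell markers summed to 34.0 to 57.3 CPM in KDAC4 H976Y and 68.4 to 260.3 elsewhere, nearly all LCP1.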

Additional observations from a re-analysis of the deposited data

How the results depend on the processing

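The 9 calls of DUSP5, SPRY2 and SPRY4 against KDAC4 H976Y, of 11 called fold changes, were made under all 26 alternative settings. DUSP5 in TMP195 against KDAC7 H709A was called under 20 and DUSP4 in KDAC7 H709A against KDAC4 H976Y under 13. A further setting took the median of its chromosome from each of 26 fold changes and gave no calls to compare. It moved 6 of them by at least their SE. Those of SPRY2 against KDAC4 H976Y were among these, with chromosome 13 medians of 0.72, 1.00 and 0.69. Upper quartile scaling moved the median of all genes by 0.11 in TMP195 against KDAC4 H976Y and against KDAC7 H709A, GC and length offsets by -0.15 in the former, and a fit on nuclear protein-coding genes by 0.10 in KDAC4 H803A against KDAC4 H976Y.

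Without the 3 libraries that stood apart, the number of members called was 7 (from 4) in KDAC7 H709A against KDAC4 H976Y, 6 (from 0) in KDAC7 H709A against KDAC4 H803A, 2 (from 0) in TMP195 against KDAC4 H803A, 5 (from 3) in TMP195 against KDAC4 H976Y, 6 (from 1) in TMP195 against KDAC7 H709A and 7 (from 4) for any difference, where 31.8%, 60.2%, 47.9%, 53.9%, 45.7% and 82.4% of all genes were called. Only the 2 groups compared gave 5 in TMP195 against KDAC4 H976Y, with 58.8% of all genes. In TMP195 against KDAC4 H803A, DESeq2, upper quartile scaling, a minimum count of 50 and nuclear protein-coding genes gave 1 each, with 10.9%, 5.9%, 6.01% and 4.58% of all genes. In TMP195 against KDAC7 H709A, DESeq2 gave 4 (14% of all genes), RLE scaling, a minimum count of 50 and nuclear protein-coding genes 2 each (6.68%, 7.8% and 6.56%), no filter 0 (2.56%), and leaving out the 2 libraries alike across labels 3 (10.8%). The count for any difference was 3 with no filter (8.47% of all genes) and with the replicate block, alone (9.84%) or with GC and length offsets (17%). It was 3 to 6 over single left-out libraries (11.5% to 55.3% of all genes). Leaving out 1 library at a time gave 0 to 1 in KDAC7 H709A against KDAC4 H803A (0% to 25.7% of all genes). It gave 0 to 1 in TMP195 against KDAC4 H803A (2.35% to 14.5%) and 0 to 4 in TMP195 against KDAC7 H709A (2.27% to 15.7%). The cause was not tested.

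Without the 3 libraries 7 of the 48 fold changes turned sign, none of them called with all libraries and 1 called without the 3. Among these, SPRED1 in KDAC4 H803A against KDAC4 H976Y became -0.20, SPRY1 in KDAC7 H709A against KDAC4 H976Y 0.29, and SPRY2 and SPRED2 in TMP195 against KDAC4 H803A 0.18 and 0.17, while DUSP4 in TMP195 against KDAC4 H976Y stayed near 0. SPRED2 in KDAC4 H803A against KDAC4 H976Y was -0.025 without the 2 alike libraries and -0.027 without the 3, and -0.0273 to 0.605 over single left-out libraries. In KDAC7 H709A against KDAC4 H803A, SPRY1 ran from -0.0426 to 0.725 over single left-out libraries and SPRY4 from -0.225 to 0.177; SPRY4 was -0.0039 on nuclear protein-coding genes and -0.39 without the 3 libraries, the latter with adjusted p = 0.0238.

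Of 19 same-number pairs of libraries, 5 deviated together with r over 0.1. The median r was -0.10 for same-number pairs and 0.047 for other pairs across groups. These deviations are from group means that include the 3 doubted libraries, so they cannot decide whether samples were paired. With the replicate block, alone or with GC and length offsets, 0 members were called in TMP195 against KDAC7 H709A. Of all genes, 2.55% and 3.98% were called there. The block put SPRY4 in KDAC7 H709A against KDAC4 H803A at -0.0057.

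Depth limits DUSP6 and SPRY1, with 91 and 230 counts in all.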
